A study of Mus musculus with 4 samples.

Results

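Messenger RNA levels of 38 genes of glycolysis and the hypoxia response were examined in mouse embryonic fibroblasts that lacked Dnmt3l (Dnmt3l-KO, 2 libraries) or were wild type (WT, 2 libraries). The genes were taken by symbol from a list of transporters, glycolytic enzymes, oxygen sensors and hypoxia-responsive genes, and counts were summed over all RefSeq transcripts of each symbol. All 38 were found among the 36846 symbols in the table, and all 38 were among the 14760 symbols with enough counts to be tested. Both genotypes were C57BL/6 fibroblast lines from embryos of day 13.5 to 14.5 of matings between Dnmt3l+/- parents, grown in DMEM with 10% serum and sequenced at passage 4. Dnmt3l is a catalytically inactive partner of the enzymes that set new DNA methylation. The study used knockout fibroblasts as donors for nuclear transfer and looked for genes that might account for better cloned embryos. Nothing in the labels says whether replicates were separate embryos, so the p-values below measure the spread between libraries, which may be technical.

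Glycolysis splits glucose into pyruvate, which is either reduced to lactate and exported or oxidised in mitochondria. In well-oxygenated cells the prolyl hydroxylases of the Egln family mark the alpha subunits of the hypoxia-inducible factors (HIF) for destruction. When oxygen falls the factors accumulate and raise the transcription of glucose transporters, glycolytic enzymes and genes such as Vegfa and Bnip3, so much of HIF regulation acts on protein and is read in RNA through its target genes. Cultured fibroblasts are known to use glycolysis heavily even in air.

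Library totals were 51465395 and 40681328 estimated counts in Dnmt3l-KO and 47776612 and 41049869 in WT, and the 38 genes took 1.20% to 1.34% of each. Dnmt3l itself had 0 and 0 counts in Dnmt3l-KO and 6 counts and 1 count in WT, too few to check the genotype labels. The Dnmt3l-KO libraries differed from each other more than the WT libraries did. Replicate 2 was above replicate 1 by a log2 difference of 0.5 or more in 13.4% of all genes tested in Dnmt3l-KO and in 6.61% in WT, and below it by as much in 9.58% in Dnmt3l-KO and 6.08% in WT. Of 10 fibroblast markers all were detected, but Dcn and Lum, typical of fibroblasts, were low, at 3.61 and 8.97 CPM (the count relative to library size, after TMM scaling) in Dnmt3l-KO and 4.80 and 4.55 CPM in WT for Dcn, and 0.421 and 9.38 CPM in Dnmt3l-KO and 1.19 and 2.54 CPM in WT for Lum. All 6 erythroid markers were at 0 in every library. Under 1 CPM throughout were 3 of 6 endothelial, 3 of 6 macrophage and leukocyte, 4 of 5 epithelial, 3 of 4 skeletal muscle and 0 of 3 neural markers. The muscle marker Des had 27.1 and 16.2 CPM in Dnmt3l-KO and 16.9 and 16.9 CPM in WT. The neural marker Tubb3 had 35.3 and 47.3 CPM in Dnmt3l-KO and 46.4 and 35.8 CPM in WT. Both exceeded Dcn and Lum in every library, but the fibroblast list as a whole was far higher. The 10 fibroblast markers summed to 16354 to 23414 CPM per library. The 4 muscle markers summed to 16.2 to 27.2 CPM and the 3 neural markers to 41.8 to 57.9 CPM. The epithelial marker Krt18 had 5.45 and 3.59 CPM in Dnmt3l-KO and 7.35 and 5.56 CPM in WT.

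Promoter sequences of 6 of the genes are given here. Hk1 and Higd1a had the smallest p between the genotypes, and for Slc2a1, Ldha, Car9 and Bnip3 the Dnmt3l-KO libraries lay apart. No result on levels below rests on these sequences. Each runs 5′ to 3′ on the gene's strand from 250 bases before to 50 bases after a transcription start (RefSeq, GRCm38.p6). Capitals mark ACGTG and GCGTG on either strand, the core letters of the element that HIF is known to bind. CACGTG, which other factors such as Myc also bind, reads ACGTG on both strands and counts as a match on each.
Hk1 chr10:62340372-62340671 (minus strand): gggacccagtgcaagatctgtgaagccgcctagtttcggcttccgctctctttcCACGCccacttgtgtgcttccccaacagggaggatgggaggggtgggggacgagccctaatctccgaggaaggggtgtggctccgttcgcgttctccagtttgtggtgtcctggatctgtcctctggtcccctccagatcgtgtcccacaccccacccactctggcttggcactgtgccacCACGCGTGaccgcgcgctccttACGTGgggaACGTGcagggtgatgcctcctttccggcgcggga
Higd1a chr9:121857747-121858046 (minus strand): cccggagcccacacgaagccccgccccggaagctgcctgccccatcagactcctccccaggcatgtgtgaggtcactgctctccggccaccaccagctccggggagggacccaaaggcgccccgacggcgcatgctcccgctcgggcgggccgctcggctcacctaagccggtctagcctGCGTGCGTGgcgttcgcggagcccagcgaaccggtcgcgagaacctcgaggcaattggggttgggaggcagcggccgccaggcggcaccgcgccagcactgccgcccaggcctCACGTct
Slc2a1 chr4:119108495-119108794 (plus strand): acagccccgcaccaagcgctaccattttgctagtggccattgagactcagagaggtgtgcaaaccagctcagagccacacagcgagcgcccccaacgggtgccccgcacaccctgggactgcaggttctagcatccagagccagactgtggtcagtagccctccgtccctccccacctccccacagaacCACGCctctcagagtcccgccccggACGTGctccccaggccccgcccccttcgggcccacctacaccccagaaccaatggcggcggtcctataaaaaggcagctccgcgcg
Ldha chr7:46845554-46845853 (plus strand): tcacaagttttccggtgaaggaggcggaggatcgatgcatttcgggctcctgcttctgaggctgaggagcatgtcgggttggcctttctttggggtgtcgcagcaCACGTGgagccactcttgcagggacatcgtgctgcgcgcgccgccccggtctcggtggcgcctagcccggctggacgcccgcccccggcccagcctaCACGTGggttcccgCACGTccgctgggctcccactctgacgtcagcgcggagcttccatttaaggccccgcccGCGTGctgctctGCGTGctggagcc
Car9 chr4:43506776-43507075 (plus strand): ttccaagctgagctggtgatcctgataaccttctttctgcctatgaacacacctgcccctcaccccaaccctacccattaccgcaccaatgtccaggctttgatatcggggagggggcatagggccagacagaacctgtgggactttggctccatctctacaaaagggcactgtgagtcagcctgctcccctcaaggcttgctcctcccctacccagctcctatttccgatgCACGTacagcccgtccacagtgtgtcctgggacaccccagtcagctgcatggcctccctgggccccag
Bnip3 chr7:138909457-138909756 (minus strand): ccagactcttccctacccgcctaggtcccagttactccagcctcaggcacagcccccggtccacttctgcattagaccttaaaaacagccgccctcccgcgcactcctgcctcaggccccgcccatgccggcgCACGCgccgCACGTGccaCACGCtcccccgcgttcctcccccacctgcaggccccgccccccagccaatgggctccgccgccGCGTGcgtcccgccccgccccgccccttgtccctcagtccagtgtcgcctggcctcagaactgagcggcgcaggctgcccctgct
With overlapping matches counted on both strands, the Ldha window held 5 matches to ACGTG and 2 to GCGTG, and the Car9 window held 1 match to ACGTG, which began 18 bases before the start. For Hk1 and Ldha, which have 2 starts each, the window shown is the one with more matches. Promoters were on record for 34 of the 38 genes. In 31 of these, or 91.2%, at least 1 window held ACGTG or GCGTG, against 67.2% of 10357 tested genes with a promoter on record. Counted by window, the shares were 78% of 50 windows and 61% of 13254. Genes with Dnmt3l-KO replicate 2 above and replicate 1 below both WT libraries had a match in 13 of 15 (86.7%). The other members had one in 18 of 19 (94.7%). The list was drawn up to hold hypoxia-responsive genes, so its share is no independent result. Such short matches are common, and a match says nothing about whether HIF was bound in these cells.

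**Figure D1:**
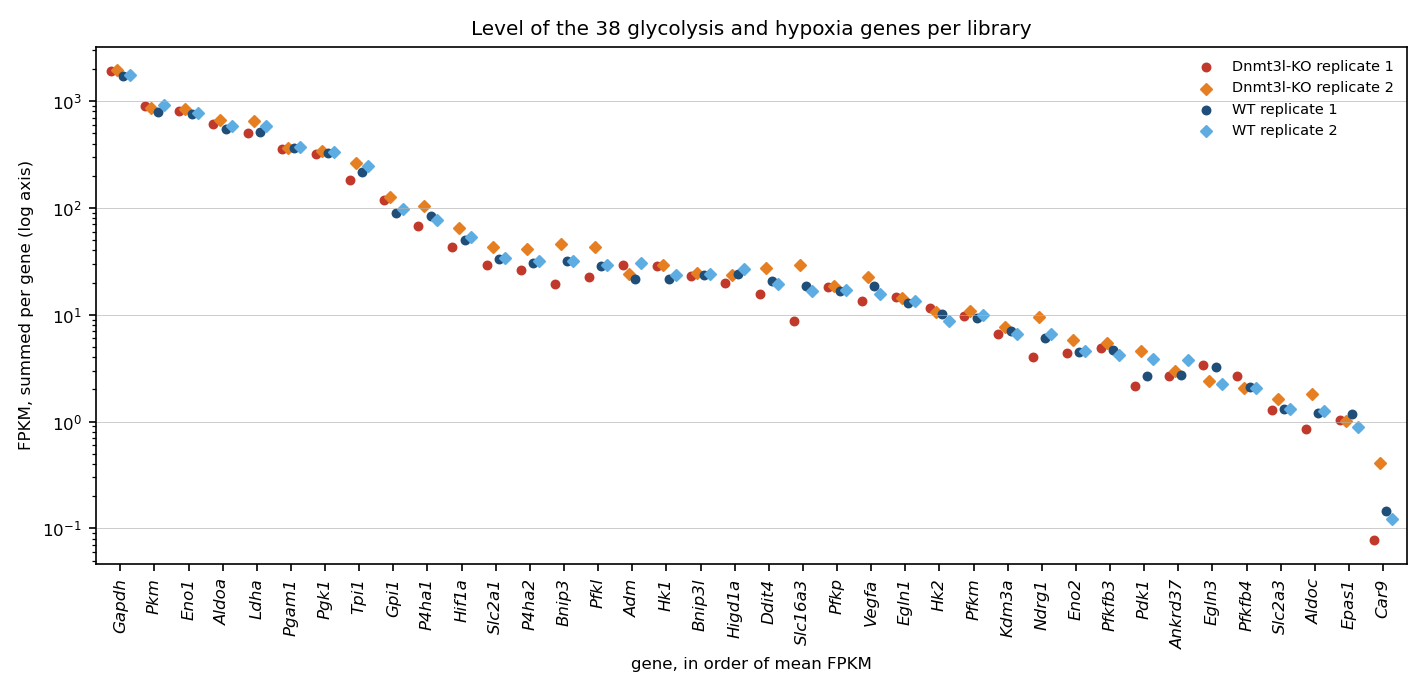
Level of each of the 38 genes as FPKM summed per gene on a log axis, in order of mean FPKM; each point is 1 of the 2 Dnmt3l-KO libraries or 2 WT libraries. Gapdh stood between 1718 and 1932 FPKM and Car9 between 0.0774 and 0.412 FPKM.

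Levels spanned the whole range from some of the best expressed messages of a fibroblast to nearly silent ones. On the length-corrected FPKM scale, Gapdh, Pkm, Eno1, Aldoa, Ldha and Pgam1 were the 6 highest in each library, and together made up 79.8% to 82.8% of the FPKM of all 38 genes. Gapdh, which oxidises glyceraldehyde-3-phosphate, had 1900.3 and 1932 FPKM in Dnmt3l-KO and 1718 and 1760.0 FPKM in WT. The next highest level was that of Pkm, the pyruvate kinase gene, at 899.6 and 868 FPKM in Dnmt3l-KO and 791 and 912 FPKM in WT. In all, 8 genes exceeded 100 FPKM in every library and 12 stayed under 10 FPKM in every library. Where a reaction has several isozymes, 1 form led, though narrowly for phosphofructokinase. Aldoa stood at 606 and 660.0 FPKM in Dnmt3l-KO and 545 and 579.9 FPKM in WT, while Aldoc, the brain form, had 0.859 and 1.81 FPKM in Dnmt3l-KO and 1.20 and 1.26 FPKM in WT. Of the HIF alpha subunits, Hif1a had 43.1 and 64.7 FPKM in Dnmt3l-KO and 49.6 and 52.9 FPKM in WT, and Epas1, which encodes the HIF-2 subunit best known from endothelium, had 1.04 and 1.02 FPKM in Dnmt3l-KO and 1.17 and 0.894 FPKM in WT. The spread between libraries was small beside these distances. The glucose transporter Slc2a1 and the isozymes Hk1 and Pfkl likewise stood above Slc2a3, Hk2 and Pfkm in every library. Pfkl was also above Pfkp in every library, but by less. In Dnmt3l-KO replicate 1 they had 22.6 and 18.3 FPKM, while Pfkl itself ran from 22.6 to 43.1 FPKM between libraries.

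The lowest was Car9, which encodes a carbonic anhydrase of the cell surface that is a strong HIF target in tumours. It had 8 and 36 counts in Dnmt3l-KO and 16 and 11 counts in WT, so its fold change rests on few reads.

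None of the 38 genes passed the test between the genotypes. In edgeR's quasi-likelihood test with Benjamini-Hochberg adjustment over all 14760 genes, each had an adjusted p of 0.999, and 3 genes (0.0203%) were called in all. At an unadjusted p under 0.05 in edgeR, 1 of the 38 (Hk1) differed, where 4.15% of all genes did. Hk1 was higher in Dnmt3l-KO, as 2.34% of all genes were, and 0 of the 38 were lower, as 1.81% of all genes were. DESeq2's Wald test also called 0 of the 38, while it called 32 genes (0.205%) in all. The median log2 fold change of the 38 genes was 0.04, against 0.006 over all genes tested. Of the 38, 30 had a fold change above 0, where 51.3% of all genes did. That count was 14 without Dnmt3l-KO replicate 2 and 28 without replicate 1. Both Dnmt3l-KO libraries lay above both WT libraries for 5 genes (13.2%), where 16.2% of all genes did so, and below for 3 (7.89%), where 16.5% did so. Other scalings of the libraries gave 3 to 6 genes above, against 14.4% to 16.4% of all genes. They gave 2 to 4 below, against 16.4% to 18.7%.

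**Figure D2:**
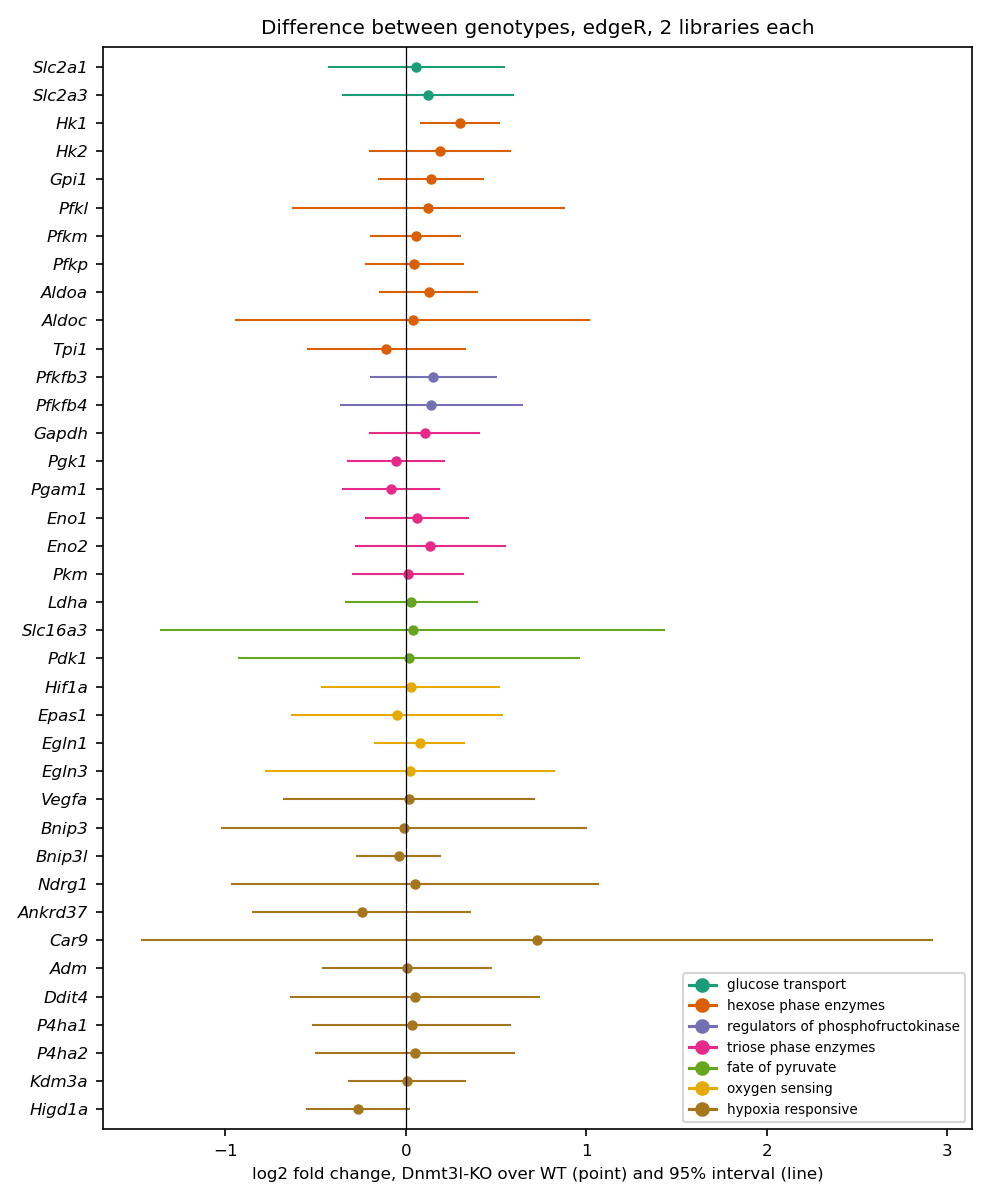
Difference between the genotypes for each gene, as the log2 fold change of Dnmt3l-KO over WT (point) with its 95% interval (line) from edgeR, with 2 libraries per genotype; colours mark the roles. The interval of Hk1, at 0.09 to 0.52, is the only one of the 38 that leaves out 0, and those of Car9 and Slc16a3 are the widest.

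Entry of glucose and the first steps to triose phosphates held the gene with the smallest p. Hk1, the housekeeping hexokinase that binds the outer mitochondrial membrane, had 127 and 126 CPM in Dnmt3l-KO and 103 and 102 CPM in WT. The groups did not overlap, and each pair of libraries was nearly level. Its log2 fold change was 0.30 ± 0.08 (SE, edgeR, adjusted p = 0.999), a 1.23-fold difference, and was positive under all 16 other settings tried. Hk2, the inducible hexokinase, had 69.9 and 62.1 CPM in Dnmt3l-KO and 65.1 and 50.7 CPM in WT, and there the groups overlapped. Gpi1, which turns glucose-6-phosphate into fructose-6-phosphate, had 289.7 and 304 CPM in Dnmt3l-KO and 288 and 251 CPM in WT, and Aldoa, the main aldolase, had 1009.8 and 1049 CPM in Dnmt3l-KO and 955 and 929.6 CPM in WT. Both were higher in each Dnmt3l-KO library, with log2 fold changes of 0.14 ± 0.11 and 0.13 ± 0.10 (SE, edgeR, adjusted p = 0.999 for both). For Gpi1 the nearest libraries of the genotypes, at 289.7 and 288 CPM, were almost level. On the FPKM scale, which weights its transcripts by length, Gpi1 had a log2 fold change of 0.37 with either pseudocount in limma and was, with Hk1, at an unadjusted p under 0.05, but it did not pass there either.

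Slc2a1, the transporter for basal glucose uptake, had 82.0 and 117 CPM in Dnmt3l-KO and 99.4 and 92.4 CPM in WT. Slc2a3, a transporter of higher affinity, had 5.65 and 6.86 CPM in Dnmt3l-KO and 5.99 and 5.51 CPM in WT. Neither separated the genotypes. Of the subunits of phosphofructokinase, the committing enzyme, Pfkm and Pfkp had log2 fold changes of 0.05 ± 0.10 and 0.05 ± 0.10 (SE), and Pfkl one of 0.12 ± 0.29. Pfkl lies close to the knocked-out gene, on the minus strand: it spans positions 77986947 to 78009807 of chromosome 10 (GRCm38), 32.5 kb from Dnmt3l at 78042287 to 78063622. It had 93.4 and 171 CPM in Dnmt3l-KO and 125 and 117 CPM in WT, so the Dnmt3l-KO libraries stood on opposite sides of WT. Hk1 lies 15.7 Mb, Ddit4 18.1 Mb and P4ha1 18.7 Mb from Dnmt3l on the same chromosome. The bifunctional regulators Pfkfb3 and Pfkfb4, which set the level of the activator fructose-2,6-bisphosphate, had 25.8 and 27.5 CPM in Dnmt3l-KO and 26.4 and 21.5 CPM in WT, and 9.76 and 7.32 CPM in Dnmt3l-KO and 8.22 and 7.28 CPM in WT, both overlapping.

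The enzymes from glyceraldehyde-3-phosphate to pyruvate had log2 fold changes from -0.08 to 0.14. Gapdh had 2997 and 2911 CPM in Dnmt3l-KO and 2846 and 2654 CPM in WT, and Pgam1, the phosphoglycerate mutase, had 728 and 711 CPM in Dnmt3l-KO and 783 and 739.5 CPM in WT. Their groups did not overlap, in opposite directions, at log2 fold changes of 0.10 ± 0.12 and -0.08 ± 0.10 (SE). Gapdh belongs to a large family of processed pseudogenes, and 7 of its 180 copies found by sequence are in the table. Together with copies found by description, these held at most 0.204% of its counts in any library. Copies without an entry of their own could not be measured. Eno2, the neuronal enolase, had 12.8 and 16.5 CPM in Dnmt3l-KO and 13.8 and 12.9 CPM in WT. The other enolase, Eno1, and the kinase Pgk1 had log2 fold changes of 0.06 ± 0.11 and -0.06 ± 0.10 (SE). The 6 enzymes of this phase summed to 8278 ± 171 CPM in Dnmt3l-KO and 8052 ± 171 CPM in WT (SD, n = 2 each), and the libraries of the genotypes overlapped.

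Pkm was level as a gene, at 2403 and 2222 CPM in Dnmt3l-KO and 2231 and 2352 CPM in WT (log2 fold change 0.01, 95% interval -0.29 to 0.32). The gene is spliced into the M1 form, typical of muscle and brain, or the M2 form, typical of dividing cells, by choice between neighbouring exons. The exon of the M1 form lies at chr9:59675029-59675195 and that of the M2 form at chr9:59675568-59675734 (GRCm38, plus strand). The curated M2 transcript held 65.2% and 72.3% of the counts of Pkm in Dnmt3l-KO and 70.8% and 77.4% in WT. The curated M1 transcript held 29.5% and 21.6% in Dnmt3l-KO and 23.4% and 19.2% in WT. M2 was the main form in every library, and the genotypes overlapped in both shares. The shares are estimates, since the transcripts have most of their sequence in common.

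**Figure D3:**
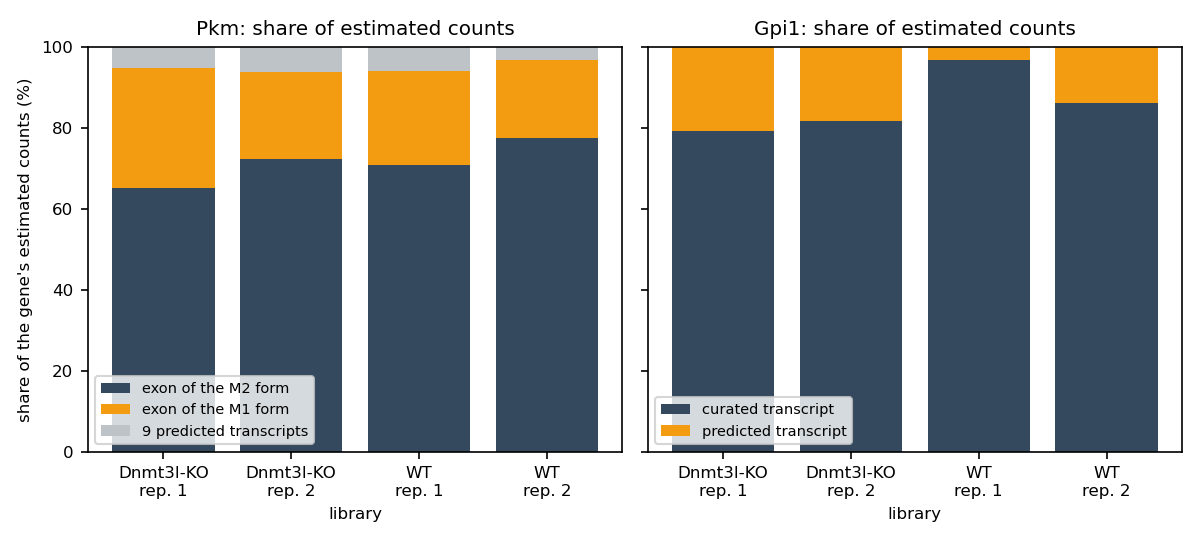
Share of the estimated counts of Pkm (left) and Gpi1 (right) given to each RefSeq transcript, in percent, as 1 stacked bar per library. The M2 transcript of Pkm takes 65.2% to 77.4%, and the predicted transcript of Gpi1 takes 20.7% and 18.3% in Dnmt3l-KO and 3.25% and 13.8% in WT.

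Of the 23 genes with at least 2 transcripts above 5% of their counts, Gpi1 alone had a mean transcript share that differed by 10 percentage points or more between the genotypes. Its predicted transcript took 20.7% and 18.3% of the counts in Dnmt3l-KO and 3.25% and 13.8% in WT. Both Dnmt3l-KO values were above both WT values, and the WT libraries lay far from each other. In the authors' deposited table this transcript had an adjusted p of 0.399, at a log2 fold change of 0.91 ± 0.34 (SE). Over all 142 transcripts of the 38 genes, 0 of the 100 with an adjusted p in the authors' deposited table were under 0.05, where 0.441% of 28097 transcripts were, and the lowest, 0.15, belonged to the predicted variant X9 of Pkm. For Vegfa, 2 pairs of RefSeq entries held identical counts in all 4 libraries. A further pair differed in 1 library, WT replicate 2, with 634 and 660 counts, and the sum for the gene includes both entries of each pair.

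The fate of pyruvate and the hypoxia-responsive genes showed a different picture: the Dnmt3l-KO libraries lay on either side of WT. For 16 of the 38 genes (42.1%), Dnmt3l-KO replicate 2 was above and replicate 1 below both WT libraries, where 14% of all genes tested had that order. The opposite order was found for 1 gene (2.63%), Pkm, where 13.6% of all genes had it. Other scalings of the libraries gave 16 to 19 genes with the first order, against 13.7% to 19.3% of all genes. By role the 16 were all 3 genes of pyruvate fate, 7 of the 12 hypoxia-responsive genes, 3 of the 9 enzymes from hexose to triose phosphate (Pfkl, Aldoc and Tpi1), Slc2a1, Eno2 and Hif1a. These counts describe single libraries, and no test between them was possible.

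Slc16a3, which encodes the lactate exporter MCT4, had 23.7 and 76.0 CPM in Dnmt3l-KO and 53.3 and 43.7 CPM in WT. Replicate 2 exceeded replicate 1 by 1.68 on the log2 scale in Dnmt3l-KO and was 0.29 below it in WT. The genotype means, 49.8 ± 37.0 CPM in Dnmt3l-KO and 48.5 ± 6.78 CPM in WT (SD, n = 2 each), were nearly the same, and the 95% interval of the log2 fold change ran from -1.36 to 1.43. Ldha, which reduces pyruvate to lactate, had 919 and 1133 CPM in Dnmt3l-KO and 984 and 1026 CPM in WT. Pdk1, the kinase that shuts pyruvate out of the mitochondrial dehydrogenase, had 12.4 and 25.2 CPM in Dnmt3l-KO and 15.99 and 21.2 CPM in WT. For all 3 genes Dnmt3l-KO replicate 1 was the lowest of the 4 libraries and Dnmt3l-KO replicate 2 the highest.

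**Figure D4:**
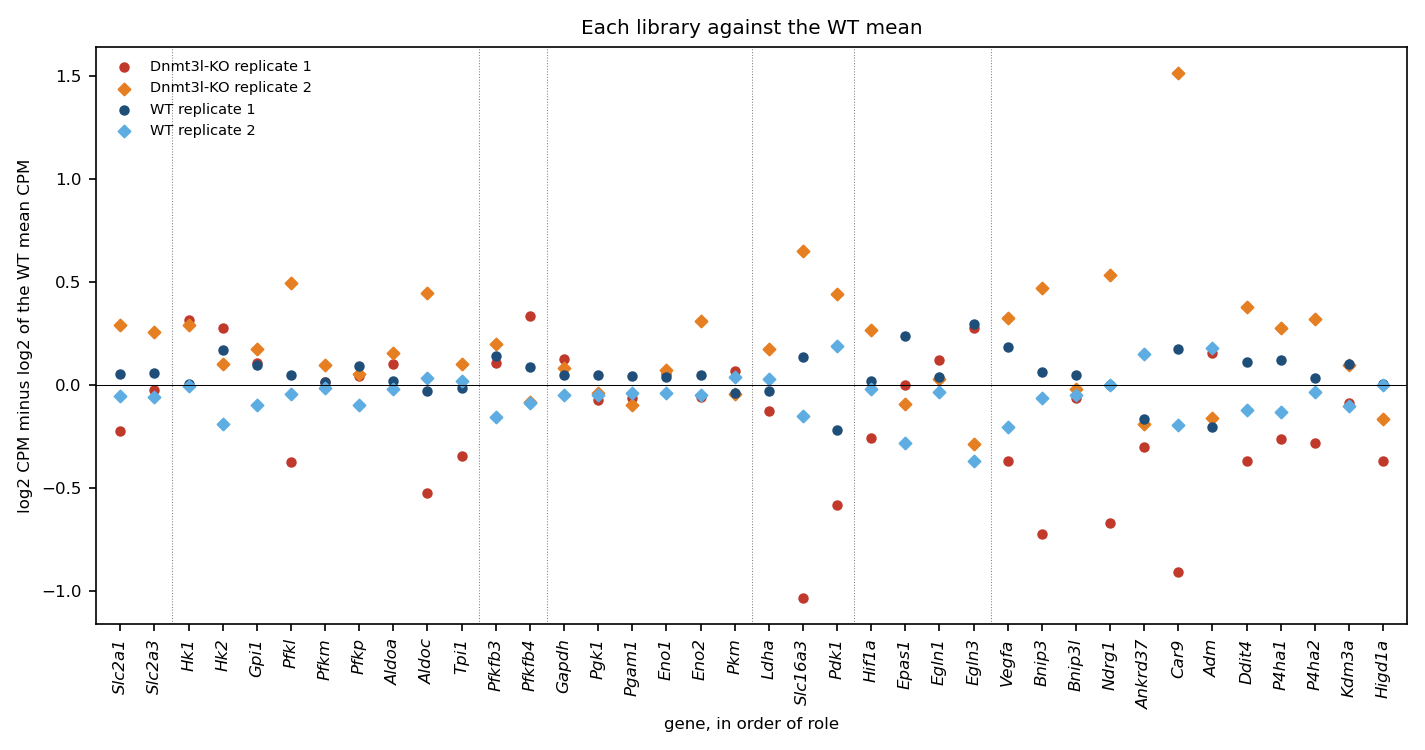
Each library's log2 CPM minus the log2 of the mean WT CPM, for the 38 genes in order of role (dotted lines part the roles). Dnmt3l-KO replicate 2 lies above and replicate 1 below both WT libraries for 16 genes, among them Slc16a3, Bnip3, Ndrg1 and Car9, and most abundant enzymes from Gapdh to Pkm lie close to 0 in every library.

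Among the sensors, Hif1a, the oxygen-regulated subunit of HIF-1, had 226 and 326 CPM in Dnmt3l-KO and 275 and 267 CPM in WT, with the same order. Epas1 had 6.17 and 5.79 CPM in Dnmt3l-KO and 7.28 and 5.08 CPM in WT. Egln1, the main prolyl hydroxylase acting on HIF, had 56.6 and 53.1 CPM in Dnmt3l-KO and 53.4 and 50.7 CPM in WT. Neither Epas1 nor Egln1 followed the order of Hif1a. Egln3, a prolyl hydroxylase that is itself induced by hypoxia, was lower in replicate 2 than in replicate 1 in both genotypes, at 10.0 and 6.79 CPM in Dnmt3l-KO and 10.2 and 6.40 CPM in WT.

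Bnip3, a receptor for the removal of mitochondria, had 37.3 and 85.3 CPM in Dnmt3l-KO and 64.4 and 58.9 CPM in WT, a log2 difference between replicates of 1.19 in Dnmt3l-KO and -0.13 in WT. Its relative Bnip3l, with the same role, had 81.6 and 84.1 CPM in Dnmt3l-KO and 88.1 and 82.3 CPM in WT and did not share that order. Ndrg1, a gene long used as a hypoxia marker, had 12.7 and 29.4 CPM in Dnmt3l-KO and 20.3 and 20.3 CPM in WT. Vegfa, the angiogenic growth factor, had 49.9 and 80.8 CPM in Dnmt3l-KO and 73.2 and 56.0 CPM in WT. In WT replicate 1 was the higher for Vegfa, as for Bnip3. Over the 38 genes the median log2 difference of WT replicate 2 over replicate 1 was -0.10.

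Ddit4, an inhibitor of mTORC1, had 29.2 and 49.1 CPM in Dnmt3l-KO and 40.8 and 34.7 CPM in WT. P4ha1 and P4ha2, the catalytic subunits of the enzyme that hydroxylates proline in collagen, had 213 and 309 CPM in Dnmt3l-KO and 277 and 233 CPM in WT, and 65.6 and 99.8 CPM in Dnmt3l-KO and 81.8 and 77.9 CPM in WT. All 3 again had replicate 1 of Dnmt3l-KO lowest and replicate 2 highest. Car9 had the same order, at 0.160 and 0.861 CPM in Dnmt3l-KO and 0.340 and 0.264 CPM in WT, on the few counts given above. Adm, a vasodilator peptide, and Kdm3a, a demethylase of histone H3, overlapped between the genotypes, with log2 fold changes of 0.006 for both.

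Higd1a and Ankrd37 were lower in both Dnmt3l-KO libraries. Higd1a, a small mitochondrial membrane protein, had 41.4 and 47.7 CPM in Dnmt3l-KO and 53.6 and 53.4 CPM in WT, a log2 difference of -0.27 ± 0.11 (SE) at an edgeR adjusted p of 0.999. Ankrd37, an ankyrin repeat protein, had 2.71 and 2.92 CPM in Dnmt3l-KO and 2.97 and 3.69 CPM in WT. For Ankrd37 the nearest libraries of the genotypes, at 2.92 and 2.97 CPM, were almost level. Neither gene passed the test.

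The summed level of the 12 hypoxia-responsive genes was 611 and 863 CPM in Dnmt3l-KO and 776 and 699 CPM in WT, or 737 ± 178 CPM in Dnmt3l-KO and 737 ± 54.4 CPM in WT (SD, n = 2 each). The means were the same and the libraries of Dnmt3l-KO were apart. Among the 10 fibroblast markers, 8 had the same order, with Dnmt3l-KO replicate 2 highest and replicate 1 lowest. That order was found for 14% of all genes tested. The exceptions, Vim and Fn1, were higher in both Dnmt3l-KO libraries than in both WT libraries. Vim had 4667 and 4356 CPM in Dnmt3l-KO and 4045 and 4326 CPM in WT. Fn1 had 7826 and 7865 CPM in Dnmt3l-KO and 7316 and 5570 CPM in WT. Col3a1, a fibrillar collagen gene, had 190.2 and 895 CPM in Dnmt3l-KO and 471 and 368 CPM in WT. The fibroblast markers summed to 18173 and 23414 CPM in Dnmt3l-KO and 19539 and 16354 CPM in WT. This sum was lowest in WT replicate 2, not in Dnmt3l-KO replicate 1. Fn1, the largest part of the sum in every library, was itself lowest in WT replicate 2. The 6 endothelial markers summed to 20.2 and 6.53 CPM in Dnmt3l-KO and 8.60 and 10.1 CPM in WT. Most of that sum was Kdr, a receptor for Vegfa, at 17.5 and 4.81 CPM in Dnmt3l-KO and 6.71 and 8.36 CPM in WT, and Pecam1, Cdh5 and Tie1 stayed under 1 CPM. Their part in the result was not tested, and in such bulk samples fewer cells of a type and less RNA per cell cannot be told apart.

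The direction of these 16 genes depended on which Dnmt3l-KO library was kept: the fold change was positive without replicate 1 and negative without replicate 2 for all 16, as their order fixes. The log2 fold change of Slc16a3 was 0.65 without replicate 1 and -1.04 without replicate 2, and that of Bnip3 0.47 and -0.73. The median of the 38 genes was 0.16 without replicate 1 and -0.07 without replicate 2, and the smallest edgeR adjusted p of the 38 was 0.297 and 0.243. At an unadjusted p under 0.05 there were 10 of the 38 genes without replicate 1, where 12% of all genes were, and 11 without replicate 2, where 13.3% were. In each of these fits Dnmt3l-KO had 1 library, which was assumed to vary like the WT pair, so they say little about the genotypes.

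Among other genes of the pathway, over 5 lists of related genes, 0 of 81 tested members passed in edgeR in either direction, where 0.0203% of all genes did. At an unadjusted p under 0.05, 4 of 81 were higher and 2 lower, where 2.34% and 1.81% of all genes were. Gys1, the glycogen synthase of most tissues, had 60.5 and 67.1 CPM in Dnmt3l-KO and 49.6 and 50.5 CPM in WT (log2 fold change 0.35 ± 0.10, SE). Crebbp, a coactivator that HIF recruits, had 111 and 117 CPM in Dnmt3l-KO and 97.4 and 89.7 CPM in WT. Mpc2, a subunit of the mitochondrial pyruvate carrier, had 24.6 and 21.9 CPM in Dnmt3l-KO and 31.4 and 27.2 CPM in WT. Of 30 other genes known to respond to hypoxia, 2 were higher and 1 lower at an unadjusted p under 0.05, beside the same 2.34% and 1.81% of all genes. They were Igfbp3, an IGF-binding protein, at 43.4 and 49.99 CPM in Dnmt3l-KO and 33.2 and 35.5 CPM in WT, Plod1, a collagen lysyl hydroxylase, at 82.6 and 89.3 CPM in Dnmt3l-KO and 73.4 and 71.0 CPM in WT, and Tfrc, the transferrin receptor, at 202 and 206 CPM in Dnmt3l-KO and 266 and 245 CPM in WT. Of these, 12 of 30 had Dnmt3l-KO replicate 2 above and replicate 1 below both WT libraries, where 14% of all genes did. That order was found for 2 of 12 further glycolytic isozymes and regulators, 1 of 12 genes of the HIF machinery, 1 of 12 of the pyruvate dehydrogenase complex and its kinases, and 3 of 15 of the pentose phosphate and glycogen branch, or 19 of 81 over the 5 lists.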

How the data were processed

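Ribosomal-RNA-depleted RNA of 4 libraries was sequenced from random-primed cDNA, per the labels' protocols. The submitters' processing notes name TopHat2 2.0.12, Cufflinks 2.2.1, eXpress 1.4.1, DESeq2 1.8.0 and build mm10, with no role given. The deposited table has, for each RefSeq transcript and library, an FPKM value and an estimated count, and every estimated count was whole as deposited. The authors' comparison of the genotypes stands beside them: a mean signal over libraries, the log2 fold change, its standard error, a test score and both raw and adjusted p-values, per the file headers. The rule that divided reads among transcripts was not given in the sources used here.

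Counts and FPKM of 116415 transcripts were summed per symbol. Dnmt3l-KO minus WT was tested by the quasi-likelihood F-test of edgeR 4.0.16 (R 4.3.3; TMM scaling, robust fit, edgeR's expression filter, Benjamini-Hochberg at 0.05) over all 14760 symbols that passed. The code was tested on simulated data. Standard errors come from the F statistic, and 95% intervals from these with the test's degrees of freedom. Log2 differences between replicates are of CPM plus 0.05. Alternatives were other scalings, DESeq2 1.42.0, limma 3.58.1 on voom or log2 FPKM values, no filter and the replicate number as a block. Further ones left out each library or Rn45s, or summed copies found by description or by sequence. Copies by sequence came from BLAST 2.17.0 on GENCODE M21 transcripts at 90% identity over 80% of the copy. Copies by description were matched by product name alone. They included Ddit4l, a separate gene, whose counts were 47.2% to 78.4% of those of Ddit4. The BLAST copies, FPKM sums per role and position counts under other scalings were chosen after seeing the data. Promoters are from RefSeq (GRCm38.p6, the build of mm10), and exons of Pkm from GENCODE M21.

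The genes and lists were chosen with earlier results of these data known. Values per library are given for the highest gene of each role by FPKM, the 14 genes with the smallest p and 7 textbook genes of the pathway (Hif1a, Epas1, Vegfa, Slc2a1, Hk2, Pkm, Ldha), for up to 3 genes with the smallest p of each related list, and for Pkm, Vegfa and shares that moved by 10 points. Values of Slc16a3, Pdk1, Pfkl, Bnip3, Bnip3l, Ndrg1, Ddit4, P4ha2, Egln3 and Aldoc, and those of markers and Bnip3's promoter, were added after they had been seen.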

Additional observations from a re-analysis of the deposited data

How the results depend on the processing

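The count of 0 genes of the 38 passing was the same under all 16 other settings, which included DESeq2, limma, other scalings, no filter, and each library left out. Over all genes, 3 calls in edgeR became 32 with DESeq2, 8 with no filter, 6 with limma on log2(FPKM + 1) and 6 on log2(FPKM + 0.1), and 2 to 6 with each library left out. At an unadjusted p under 0.05, 1 of the 38 genes in the main edgeR test became 2 (Hk1 and Gpi1) with limma on either FPKM scale and 0 to 11 with each library left out. The median log2 fold change of the 38 genes lay between -0.07 and 0.16 with each library left out. Its sign turned without Dnmt3l-KO replicate 2 alone among the 16 settings. Of the 38 fold changes, 13 kept their sign under all 16 settings and 25 turned at least once; Hk1 and Higd1a were among the 13. With the replicate number as a block, edgeR called 4 genes in all and 0 of the 38, with a median of 0.02; the deviations of same-numbered libraries correlated at 0.103 over all genes, and nothing in the labels says that the numbers pair the libraries. For Gpi1, the share of the predicted transcript differed between genotypes by 19.2 points on FPKM and by 11.0 points on counts; FPKM divides by transcript length. With 2 libraries per genotype the standard errors of the 38 log2 fold changes ran from 0.08 to 0.85, and the widest 95% interval, that of Car9, ran from -1.46 to 2.92.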
